A study of Mus musculus with 6 samples.

Results

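The genes described here are the 3 D-type cyclins Ccnd1, Ccnd2 and Ccnd3, the E-type cyclins Ccne1 and Ccne2, and 4 inhibitors of cyclin-dependent kinases (CDKs): Cdkn1a, Cdkn1b, Cdkn1c and Cdkn2c. All probe sets that the platform annotation pairs with 1 of these 9 genes were taken, which gave 22 of the 34945 probe sets paired with 1 gene, for 9 of 18194 genes. The RNA was that of NIH3T3, an established mouse fibroblast line of embryonic origin, and was measured on 6 Affymetrix arrays, 3 from cells with mutant LPAR1 and 3 from cells with wild-type LPAR1. LPAR1 is a receptor for lysophosphatidic acid, a growth-promoting lipid of serum. Times of 0, 60 and 120 minutes were each covered by 1 array per genotype. The labels name neither the mutation nor any stimulus that starts the clock, and they leave the number of cultures and clones unstated.

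Passage through G1, the phase of the cell cycle before DNA replication, is driven by cyclins that activate CDKs. D-type cyclins bind CDK4 and CDK6 and are induced by mitogens, and E-type cyclins bind CDK2 later, near the onset of S phase. Both kinase activities phosphorylate the retinoblastoma protein, which releases E2F transcription factors. Inhibitors of the Cip/Kip family (p21 from Cdkn1a, p27 from Cdkn1b, p57 from Cdkn1c) bind cyclin-CDK complexes. Members of the INK4 family, such as p18 from Cdkn2c, bind CDK4 and CDK6 alone. In fibroblasts p27 is known as an inhibitor that is abundant in quiescent cells and declines after mitogens are added.

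The deposited values were probe-set intensities on a linear scale, with a median between 34.1 and 37 on the mutant and between 35.5 and 37.3 on the wild-type arrays. Differences are given as log2(intensity + 16), and each is taken within a probe set. Levels of different probe sets were compared to choose a set per gene, for the filter and to describe sets as dim or bright. They were also combined in the sums of cell type markers and in the ratio of the Actb control sets given below. For each gene the brightest probe set on average stood for the gene, which was tested if that mean level reached the 40th percentile of genes, an intensity of 39.2. Of the 9 genes 8 were tested, and Cdkn1c lay below that level, as did 2 of the 3 probe sets of Ccnd3. Tests came from limma (two-sided, Benjamini-Hochberg adjustment over 10916 genes, passed at an adjusted p of 0.05), in a fit with genotype and time as additive terms. Its SE and p-values rest on 2 residual degrees of freedom plus shrinkage across genes, measure only the spread between these arrays, which may be technical, and treat any difference in time course between genotypes as error. In bulk RNA, fewer cells of a kind and less RNA per cell cannot be told apart. All 10 fibroblast markers examined were above the filter level, as were the epithelial genes Epcam and Cdh1 and the endothelial gene Cdh5, but no leukocyte marker. Lpar1 itself had intensities between 1438 and 1514 in mutant and between 1289 and 1335 in wild-type cells at its brightest probe set.

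Across the 2 hours, Cdkn1b and Cdkn2c fell and Ccnd1 and Cdkn1a rose in both genotypes, while Ccnd2, Ccnd3, Ccne1 and Ccne2 did not pass any test of time. Between 120 and 0 minutes 2 members were higher and 2 lower of 8 tested, against 47% of all tested genes that passed in either direction (16.2% higher and 30.8% lower), so the share of members that passed was close to that of all genes. The count was 1 higher and 2 lower of 8 between 60 and 0 minutes, against 18% of all genes (7.34% higher and 10.7% lower). It was again 1 higher and 2 lower of 8 between 120 and 60 minutes, against 25.2% (10.2% higher and 15% lower). The median log2 difference of the 8 tested members was 0.020 from 0 to 120 minutes, against -0.091 over all tested genes. The median absolute difference was 0.24, against 0.20.

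**Figure D1:**
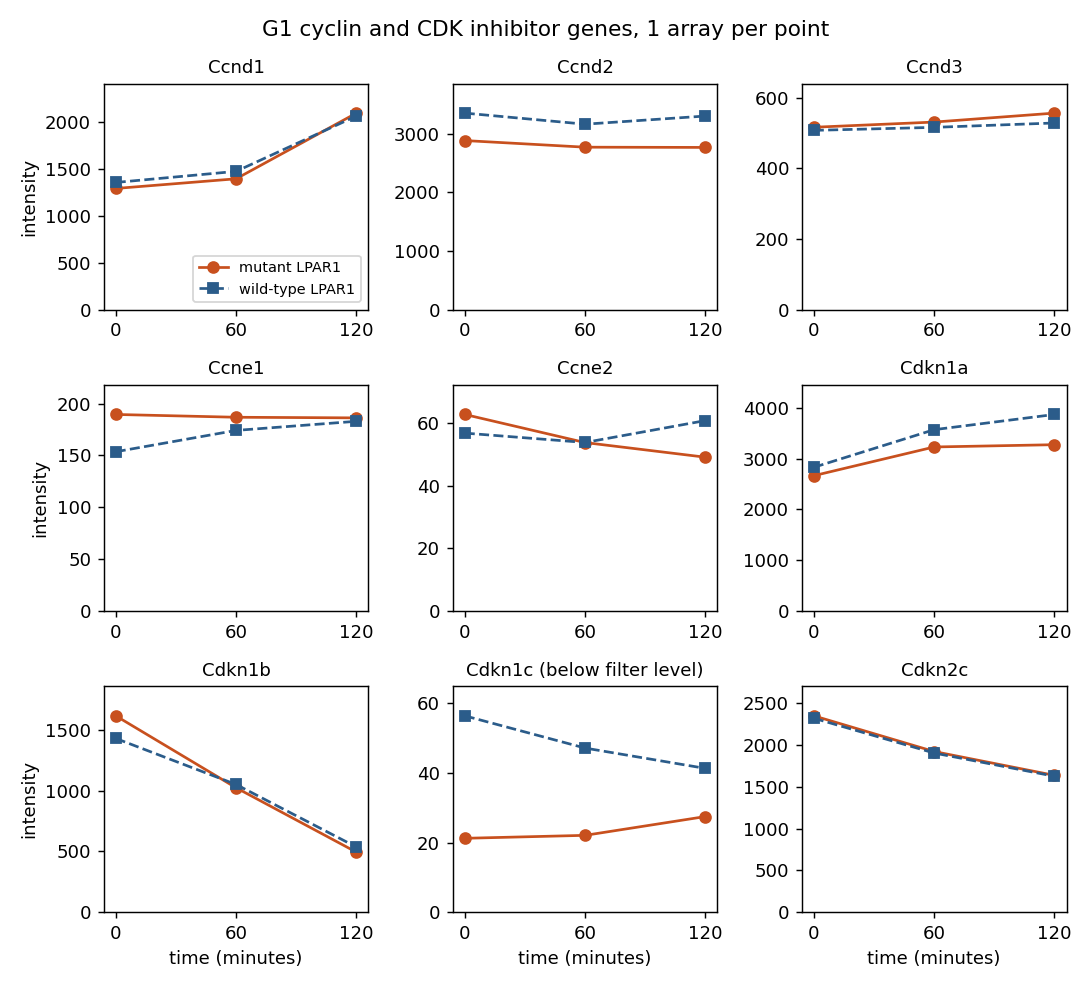
Probe-set intensity (vertical axes from 0, linear) of each of the 9 genes at 0, 60 and 120 minutes, with 1 array per point, mutant cells in orange circles and wild-type cells in blue squares. Cdkn1b descends to 494.2 in mutant and 536.4 in wild-type cells at 120 minutes, Ccnd1 climbs mainly after 60 minutes, and the Ccnd2 and Cdkn1c points of mutant cells all lie below those of wild-type cells. Of tested genes, which leave out Cdkn1c, 7.63% had all mutant arrays below all wild-type arrays.

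Ccnd1 encodes cyclin D1, the D-type cyclin best known as a target of mitogen signalling. Its intensity was 1288 at 0, 1391 at 60 and 2090 at 120 minutes in mutant cells, and 1352, 1470 and 2059 at the same times in wild-type cells. Both genotypes were highest at 120 minutes, and the arrays of 0 and 60 minutes lay close together. The gene rose 1.56-fold between 0 and 120 minutes (log2 0.65 ± 0.056, SE; n = 2 arrays per time; limma adjusted p = 1.1e-05), and 500 of the 10916 tested genes had a higher value in this contrast. The difference between 60 and 0 minutes was 0.11 ± 0.056 (adjusted p = 0.188), and that between 120 and 60 minutes was 0.53 ± 0.056 (adjusted p = 9.52e-05).

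The other Ccnd1 probe sets were also highest at 120 minutes in both genotypes. The second set had 404.3, 574.6 and 803.4 in mutant cells and 505.7, 517.2 and 838.7 in wild-type cells at 0, 60 and 120 minutes. The remaining set had 527.2, 617.3 and 884.4 in mutant cells and 590.6, 647.9 and 883.5 in wild-type cells. All 3 sets went up at each step in both genotypes, which 11% of the probe sets above the filter level did. In a fit of every probe set without a filter, the 3 sets differed by log2 0.65 to 0.84 between 120 and 0 minutes, and all passed (adjusted p from 4.79e-05 to 0.00027, where 22.1% of probe sets passed). All 3 also passed between 120 and 60 minutes, where 10.2% of probe sets did. Between 60 and 0 minutes the second set had the highest difference (0.26 ± 0.10, adjusted p = 0.175), and none passed.

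Ccnd2 encodes cyclin D2 and Ccnd3 cyclin D3, which bind the same kinases as cyclin D1. Ccnd2 had intensities of 2880, 2767 and 2763 in mutant cells at 0, 60 and 120 minutes, against 3348, 3159 and 3298 in wild-type cells. Its time differences were small and did not pass: log2 -0.07 ± 0.049 for 60 minus 0, -0.041 ± 0.049 for 120 minus 0 and 0.030 ± 0.049 for 120 minus 60 minutes (adjusted p = 0.349, 0.529 and 0.734). Ccnd3 had 516.2, 530.9 and 556.3 in mutant cells and 507.4, 515.9 and 528.3 in wild-type cells. Its 120 minus 0 difference was 0.081 ± 0.064 (adjusted p = 0.337). The gene went up at each step in both genotypes, as 9.70% of tested genes did.

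Ccne1 and Ccne2 encode cyclins E1 and E2, the partners of CDK2. Ccne1 had intensities of 189.6, 186.9 and 186.3 in mutant cells at 0, 60 and 120 minutes, and 153.6, 174.2 and 183.0 in wild-type cells. The genotypes differed most at 0 minutes and lay close at 120 minutes. The time differences were 0.073 ± 0.091 for 60 minus 0 and 0.10 ± 0.091 for 120 minus 0 minutes (adjusted p = 0.613 and 0.383). The probe set used is of a class (suffix x) whose probes can match other transcripts. Its other set was dimmer, with 68.8, 74.9 and 67.8 in mutant and 64.2, 57.6 and 56.6 in wild-type cells. Ccne2 had 62.7, 53.7 and 49.0 in mutant cells and 56.7, 53.7 and 60.7 in wild-type cells, not far above the filter level of 39.2. Its genotypes overlapped, and the 120 minus 0 difference was -0.099 ± 0.13 (adjusted p = 0.556).

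Among the inhibitors that are members, Cdkn1b had the largest change. Its intensity was 1616 at 0, 1024 at 60 and 494.2 at 120 minutes in mutant cells, and 1430, 1051 and 536.4 in wild-type cells. The arrays of the 3 times did not overlap, a trait for which no share of all genes was computed. Each step was downward in both genotypes, as for 24.8% of tested genes. The gene fell 1.46-fold by 60 minutes (log2 -0.54 ± 0.075; limma adjusted p = 0.000727) and 2.89-fold by 120 minutes (-1.53 ± 0.075; adjusted p = 2.51e-07). The second hour alone gave -0.99 ± 0.075 (adjusted p = 1.21e-05). Only 48 of the 10916 tested genes had a lower value for 120 minus 0 minutes. A second, dim set had 60.6, 62.7 and 32.9 in mutant cells and 89.9, 53.6 and 38.1 in wild-type cells. It differed by -0.81 ± 0.15 between 120 and 0 minutes (adjusted p = 0.00381 in the fit of every probe set). Its first step was not downward in mutant cells, so 1 of the 2 Cdkn1b sets went down at each step in both genotypes, as 20.8% of probe sets above the filter level did.

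Cdkn2c, the gene of p18, had intensities of 2349, 1922 and 1637 in mutant cells at 0, 60 and 120 minutes, and 2320, 1904 and 1626 in wild-type cells. The genotypes were nearly superimposed at each time, and the 3 times were apart, again with no share of all genes computed. Each step was downward in both genotypes, as for 24.8% of tested genes. Cdkn2c fell 1.22-fold by 60 minutes (log2 -0.29 ± 0.051; adjusted p = 0.00372) and 1.43-fold by 120 minutes (-0.51 ± 0.051; adjusted p = 2.82e-05). The second hour gave -0.23 ± 0.051 (adjusted p = 0.00863), a call that was lost without the wild-type array of 60 minutes (adjusted p = 0.0525) or the mutant array of 60 minutes (0.0507). The 60 minus 0 call was lost in a fit without genotype as a term (adjusted p = 0.052), as was that of 120 minus 60 minutes (0.0747). For 120 minus 0 minutes, 1131 tested genes had a lower value than Cdkn2c. The gene has 1 probe set.

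Cdkn1a, the gene of p21 and a textbook target of p53, went the other way from Cdkn1b and Cdkn2c. Its intensity was 2665, 3231 and 3276 in mutant cells at 0, 60 and 120 minutes, and 2830, 3572 and 3872 in wild-type cells. The 0 minute arrays were lowest in both genotypes, and 60 and 120 minutes lay close together in mutant cells. It rose 1.24-fold by 60 minutes (log2 0.31 ± 0.053; adjusted p = 0.00323) and 1.30-fold by 120 minutes (0.37 ± 0.053; adjusted p = 0.00031). The 60 minus 0 call was lost in a fit without genotype as a term (adjusted p = 0.158). The second hour gave 0.068 ± 0.053 (adjusted p = 0.423). The second Cdkn1a set had 1616, 2081 and 2225 in mutant cells and 2035, 2431 and 2573 in wild-type cells. In the fit of every probe set it rose by 0.31 ± 0.057 at 60 and 0.40 ± 0.057 at 120 minutes (adjusted p = 0.00932 and 0.000838), where 7.84% and 22.1% of probe sets passed.

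**Figure D2:**
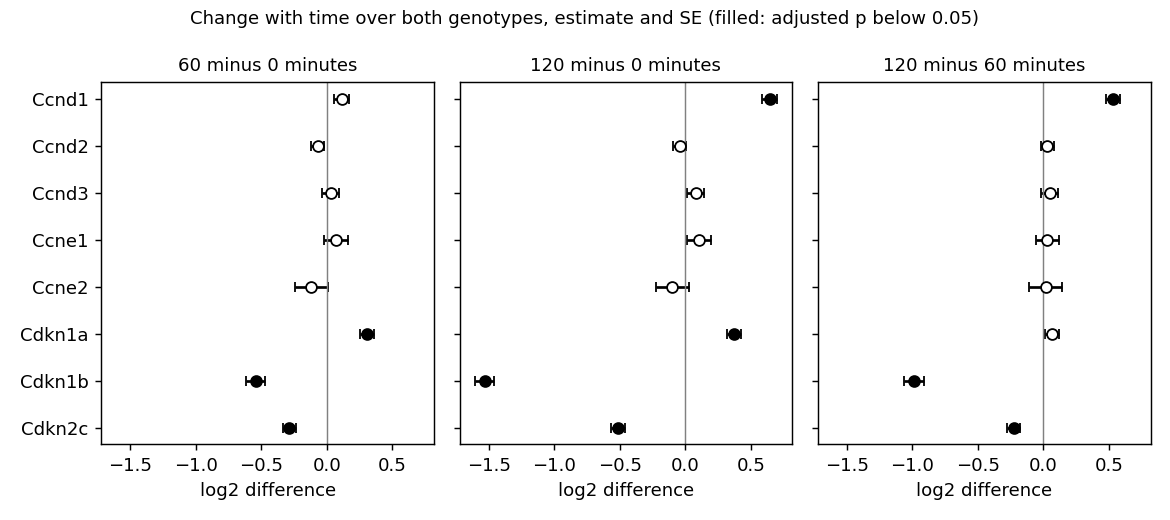
Log2 difference of intensity + 16 between times (horizontal axes), estimated over both genotypes for the 8 tested genes, with the SE of the additive fit as bars and filled points where the adjusted p was below 0.05. Cdkn1a is filled at 60 minus 0 and 120 minus 0 minutes, Ccnd1 at both contrasts that involve 120 minutes, and Cdkn1b and Cdkn2c in all 3 contrasts.

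The 0 minute arrays entered both the 60 and the 120 minute differences from 0 minutes, so those differences are not independent of each other. The Actb control probe sets, which read RNA quality as the 5' signal divided by the 3' signal, also moved with time. The ratio was 0.505 at 0, 0.683 at 60 and 0.661 at 120 minutes in mutant cells, and 0.579, 0.650 and 0.699 in wild-type cells. Its part in the time differences was not tested. With each array centred on its median, 62.0% of the genes that passed between 60 and 0 minutes were higher, against 40.7% with the values as deposited. The 3 members that passed there also passed with that centring, Cdkn1a at 0.37, Cdkn1b at -0.48 and Cdkn2c at -0.22.

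The inhibitors that changed with time and have an entry in the RefSeq promoter table (build GRCm38.p6) are given here, each from 250 bases before to 50 bases after a transcript start, as the sequence context of the genes whose level changed. A second Cdkn2c window is counted but not printed. Of the 9 genes 5 had an entry there, with 8 windows in all. Capitals mark GC boxes (GGGCGG) and CCAAT boxes (CCAAT) on either strand, or, in the first Cdkn1a window, repeats of a p53 element.
Cdkn1b, chr6:134920151-134920450, plus strand: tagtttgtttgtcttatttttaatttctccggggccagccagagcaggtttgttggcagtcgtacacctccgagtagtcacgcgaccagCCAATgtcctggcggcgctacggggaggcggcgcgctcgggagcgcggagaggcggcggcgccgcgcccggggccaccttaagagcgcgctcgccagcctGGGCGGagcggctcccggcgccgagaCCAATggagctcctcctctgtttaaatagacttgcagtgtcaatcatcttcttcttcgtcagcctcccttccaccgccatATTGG
Cdkn2c, chr4:109666707-109667006, minus strand: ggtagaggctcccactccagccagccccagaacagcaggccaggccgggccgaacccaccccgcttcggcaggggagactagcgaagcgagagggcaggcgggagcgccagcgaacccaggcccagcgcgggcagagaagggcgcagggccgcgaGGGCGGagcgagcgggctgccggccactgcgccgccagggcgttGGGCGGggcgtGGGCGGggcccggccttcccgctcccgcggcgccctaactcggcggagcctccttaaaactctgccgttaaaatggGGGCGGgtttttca
Cdkn1a, first start, chr17:29090729-29091028, plus strand: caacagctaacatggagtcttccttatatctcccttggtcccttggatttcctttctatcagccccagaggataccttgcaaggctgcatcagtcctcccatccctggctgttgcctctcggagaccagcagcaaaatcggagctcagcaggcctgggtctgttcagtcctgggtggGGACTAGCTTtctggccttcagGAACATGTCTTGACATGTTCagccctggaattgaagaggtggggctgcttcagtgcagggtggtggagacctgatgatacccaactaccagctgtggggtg
Cdkn1a, second start, chr17:29093519-29093818, plus strand: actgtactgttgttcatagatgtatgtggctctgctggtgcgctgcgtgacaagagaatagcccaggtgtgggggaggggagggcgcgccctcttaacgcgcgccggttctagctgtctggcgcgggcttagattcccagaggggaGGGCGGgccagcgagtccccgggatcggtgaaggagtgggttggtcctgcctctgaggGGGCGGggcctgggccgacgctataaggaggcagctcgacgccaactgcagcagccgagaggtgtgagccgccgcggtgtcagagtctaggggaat

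The p53 element was searched by name, as a pair of repeats 0 to 13 bases apart with at most 1 mismatch over both. It was found in the first Cdkn1a window, with 3 repeats starting 73, 51 and 41 bases before the start, and in no other window of a member, against 1.09% of all 32851 windows. GC boxes numbered 4 in the Cdkn2c window shown and 0 in its second window, 1 in that of Cdkn1b, and 0 and 2 in the first and second Cdkn1a windows. Of members that passed no test, Ccne1 had 4 in its window and Ccnd3 had 2 in each of its 2 windows, and 35.7% of all windows held at least 1. CCAAT boxes numbered 3 in the Cdkn1b window, 1 in the second Cdkn2c window and 1 in 1 of the Ccnd3 windows, and 37.4% of all windows held at least 1. The FoxO core (GTAAACA, both strands) was found in 1 of the 2 Ccnd3 windows and in no window of an inhibitor, against 3.65% of all windows. The E2F letters TTTCGCGC and TTTGGCGC, the AP-1 letters TGANTCA, the CRE letters TGACGTCA and the CArG box, searched by name, were in none of the 8 windows. They were in 0.323%, 0.514%, 7.81%, 1.79% and 1.63% of all windows. The E-box CACGTG was in the second Cdkn2c window, against 7.15% of all windows. These matches are descriptions of letters and say nothing about binding.

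Between genotypes, Ccnd2 and Cdkn1a were lower in mutant cells, and the other 6 tested members did not pass. That is 2 of 8 lower and 0 higher, against 19.3% of all tested genes that passed in either direction, 10.4% higher and 8.92% lower. The median log2 difference of the tested members was -0.017, against 0.015 over all tested genes, and the median absolute difference was 0.044, against 0.10. The SE and p-values of this contrast cannot tell the mutation from another difference between the cells, since the number of clones is not stated. The summed intensity of 4 endothelial markers also differed by genotype, with 95.0 to 110.6 in mutant and 51.2 to 65.6 in wild-type arrays. Of these only Cdh5 was above the filter level. The summed intensity of the 10 fibroblast markers was separated by genotype too, with 55420 to 56590 in mutant and 57690 to 58930 in wild-type arrays. The sums of the epithelial and leukocyte markers overlapped between genotypes. Whether the mix of cells had a part in the result was not tested.

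Ccnd2 averaged 2803 ± 66.4 in mutant cells and 3268 ± 97.7 in wild-type cells (SD over the 3 times, n = 3 arrays each). The mutant arrays all lay below the wild-type arrays, as for 7.63% of tested genes. The log2 difference was -0.22 ± 0.040 (SE; limma adjusted p = 0.00478), with -0.22 at 0, -0.19 at 60 and -0.25 at 120 minutes. Without time as the block that pairs the arrays it did not pass (adjusted p = 0.139).

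All 7 Ccnd2 probe sets showed the mutant arrays below every wild-type array, which 8.47% of the probe sets above the filter level did. Their differences ranged from -0.22 to -0.38 in the fit of every probe set, and 5 of 7 passed there, where 6.13% of all probe sets passed. The largest was at a set with 1227, 1291 and 1289 in mutant cells at 0, 60 and 120 minutes, against 1713, 1543 and 1722 in wild-type cells (-0.38 ± 0.055; adjusted p = 0.00394). That set, like the Ccne1 set used, is of the class (suffix x) whose probes can match other transcripts. The 2 dimmest sets did not pass (-0.34 and -0.30; adjusted p = 0.0514 and 0.128). At each of the 7 sets the difference at 60 minutes was the smallest of the 3 times, and the plot of genotype differences shows those points nearest to 0. The 7 sets read the same RNA on the same arrays and are not replicates of one another.

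Cdkn1a differed by -0.16 ± 0.044 (adjusted p = 0.0325), with -0.086 at 0, -0.14 at 60 and -0.24 at 120 minutes. Mutant arrays were lower at each time, as for 22.9% of tested genes, but the ranges of the genotypes overlapped because the gene rose with time. The call was lost without the wild-type array of 60 minutes (adjusted p = 0.0840) or 120 minutes (0.141), and without the mutant array of 60 minutes (0.0835) or 120 minutes (0.139). The call was also lost without time as the block (0.837), without a filter on low values (0.0536), with no trend in the shrinkage (0.128) and with each array centred on its median (-0.14; adjusted p = 0.0587). The other probe set differed by -0.25 ± 0.047 and passed in the fit of every probe set (adjusted p = 0.0136), where the brighter set did not (0.0790). Both sets were lower in mutant cells at each time, as were 24.4% of probe sets above the filter level.

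Cdkn1c, which encodes p57, an imprinted inhibitor, was dim on every array. Its only probe set had 21.2, 22.1 and 27.5 in mutant cells at 0, 60 and 120 minutes, against 56.4, 47.1 and 41.3 in wild-type cells. All mutant arrays lay below the filter level of 39.2 and all wild-type arrays above it, with that of 120 minutes nearest to it. Of probe sets above the filter level, 8.47% had all mutant arrays below all wild-type arrays. That share leaves out sets as dim as this one, for which none was computed. In the fit of every probe set without a filter the log2 difference was -0.70 ± 0.12 (adjusted p = 0.00992), where 6.13% of all probe sets passed. Its size depended on the offset, at -1.0 with an offset of 1 and -0.36 with 64. It did not pass without time as the block (adjusted p = 0.103). By time it was -0.96, -0.73 and -0.40, in the order of 0, 60 and 120 minutes.

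**Figure D3:**
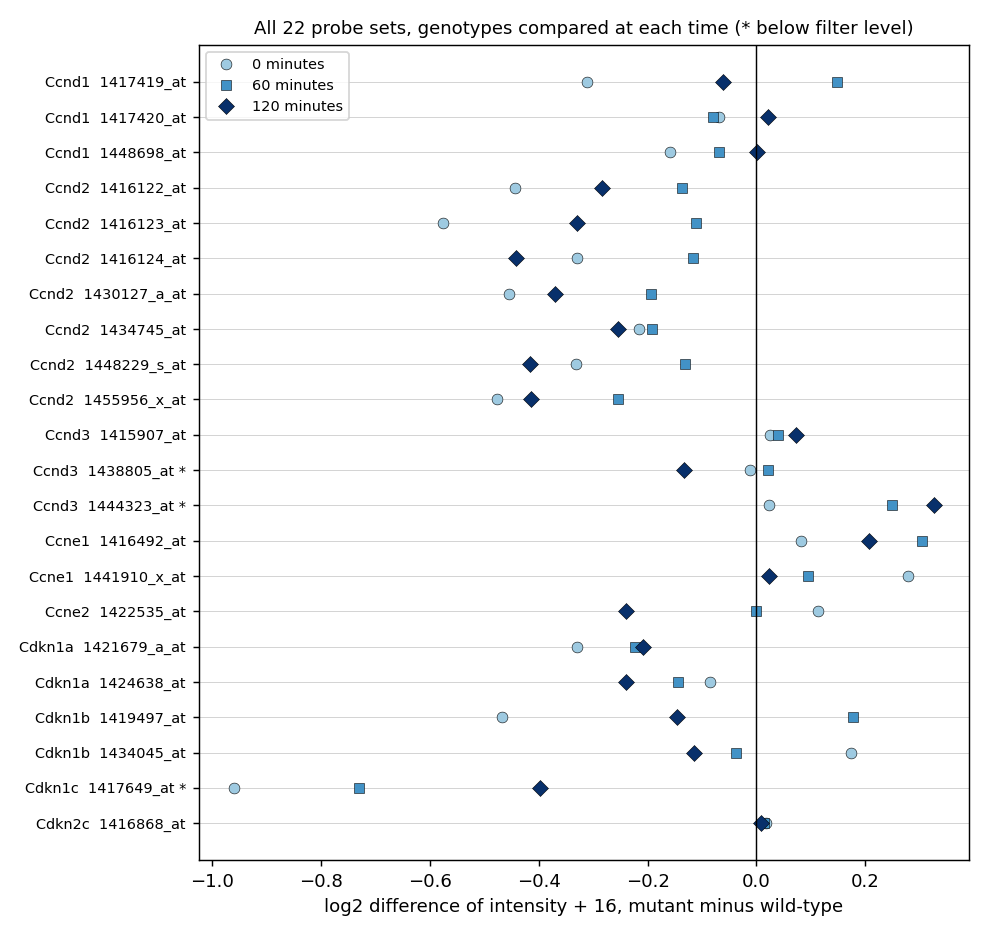
Log2 difference of intensity + 16 (horizontal axis), mutant minus wild-type, for each of the 22 probe sets at 0 (circles), 60 (squares) and 120 minutes (diamonds), with no error since each point compares 1 array with 1 array. All points of the 7 Ccnd2 sets and of the Cdkn1c set lie left of 0, whereas the Cdkn2c points lie between 0.0094 and 0.018. Of probe sets above the filter level, which leave out Cdkn1c, 24.4% were lower in mutant cells at each time.

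For the other members no genotype difference passed. The differences were -0.042 ± 0.045 for Ccnd1, 0.046 ± 0.053 for Ccnd3, -0.042 ± 0.10 for Ccne2, 0.0077 ± 0.061 for Cdkn1b and 0.014 ± 0.042 for Cdkn2c (adjusted p from 0.564 to 0.950). Ccne1 differed by 0.13 ± 0.074 (adjusted p = 0.253). At both Ccne1 probe sets the mutant arrays all lay above the wild-type arrays, as for 9.06% of tested genes. Ccnd3, Ccne1 and Cdkn2c were higher in mutant cells at each time, 3 of 8 tested members against 28.4% of tested genes.

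The change over time could be set side by side in the genotypes but not tested, because each genotype and time had 1 array. Cdkn1b changed by log2 -0.65 at 60 and -1.68 at 120 minutes in mutant cells, and by -0.44 and -1.39 in wild-type cells. Cdkn1a changed by 0.28 and 0.30 in mutant cells, and by 0.34 and 0.45 in wild-type cells. Ccnd1 changed by 0.11 and 0.69 in mutant cells, and by 0.12 and 0.60 in wild-type cells. The Cdkn2c values were nearly the same, -0.29 and -0.52 in mutant cells and -0.28 and -0.51 in wild-type cells. For all 4 genes the direction from 0 minutes was shared by the genotypes at both later times. The 4 genes passed a fit that counts a difference in time course between genotypes as error. A shared direction was thus favoured by the choice, and its share among all genes was not computed.

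For the members that passed in any contrast, the genes with the most similar profile were sought by the root mean square difference of log2 values, centred on each gene's mean, over the 6 arrays. For Ccnd1 they were Ppp1r13l, Sdad1 and Prkcd (0.050, 0.051 and 0.051). Ppp1r13l had 169.3, 188.3 and 288.0 in mutant cells at 0, 60 and 120 minutes and 164.2, 185.0 and 272.5 in wild-type cells, a late increase like that of Ccnd1. For Cdkn1b they were Mettl7a1, Ddit3 and Crebrf, at a greater distance (0.11 for each). Ddit3, a transcription factor gene of the stress response, had 1856, 1376 and 634.9 in mutant cells and 1683, 1208 and 563.8 in wild-type cells. For Cdkn1a they were Plat, Slc25a25 and Ndel1 (0.034, 0.035 and 0.037), for Cdkn2c Usp21, Cep89 and Gigyf2 (0.024 for each), and for Ccnd2 Tom1, Ndufa9 and Cops7a (0.025, 0.026 and 0.029). Among the members themselves the closest profiles were those of Ccnd3 and Ccne1 (0.078), which passed no test. Those of Cdkn1b and Cdkn2c, which both fell, were 0.44 apart. The distance counts the size of a change, so genes that change little lie close to one another. Falls of unlike size, here -1.53 and -0.51 between 120 and 0 minutes, lie apart.

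Lists of related genes, drawn up with earlier results of these data known, are given by their counts. Among other CDK inhibitors, Cdkn2d, which encodes the INK4 protein p19, had 284.4, 195.5 and 75.4 in mutant cells at 0, 60 and 120 minutes, and 240.0, 192.0 and 65.5 in wild-type cells. It fell, with log2 differences of -0.40 ± 0.090 at 60 and -1.68 ± 0.090 at 120 minutes (adjusted p = 0.0126 and 4.73e-07). The estimate at 120 minutes was a larger fall than that of Cdkn1b (-1.53). Cdkn3, a phosphatase gene, did not pass in any contrast, and Cdkn2d did not pass between genotypes. Cdkn2a and Cdkn2b, the other INK4 genes, were below the filter level and not tested, with intensities of at most 3.83 and 9.07 in mutant and 5.61 and 13.6 in wild-type cells.

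Of 8 genes for G1 CDKs and their activators, all tested, 3 rose and 1 fell between 0 and 120 minutes. Between 0 and 60 minutes 0 passed, against 18% of all tested genes. Of all tested genes 16.2% passed as higher and 30.8% as lower between 0 and 120 minutes, 47% in all, so 4 of 8 is near that share. Cdc25a, a phosphatase that activates CDK2, had 165.1, 128.1 and 256.1 in mutant cells at 0, 60 and 120 minutes and 144.4, 122.4 and 219.4 in wild-type cells (120 minus 0 minutes: 0.57 ± 0.086; adjusted p = 0.000439). Cdk6, a partner of D-type cyclins, rose by 0.27 ± 0.055 and Cdk7, the CDK-activating kinase, by 0.34 ± 0.062 (adjusted p = 0.00273 and 0.00144). The median difference of the 8 genes was 0.035, against -0.091 over all genes. Between genotypes 3 of the 8 were higher in mutant cells, against 10.4% of all tested genes: Cdk6 (0.19 ± 0.045), Ccnh, the cyclin partner of Cdk7 (0.30 ± 0.065), and Cdk4, named after its values were seen (0.28 ± 0.050).

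Of 13 genes for pocket proteins, E2F factors and their partners, 11 were tested, and 4 rose and 5 fell between 0 and 120 minutes, against 16.2% of all tested genes higher and 30.8% lower. E2f3, an activating E2F, rose by 0.58 ± 0.095 (adjusted p = 0.000722). E2f8, a repressing E2F, rose by 0.68 ± 0.25 in the fit over both genotypes (adjusted p = 0.0487), but its intensity was 86.5, 90.1 and 86.7 in mutant cells and 91.0, 110.7 and 256.4 in wild-type cells, so 1 wild-type array stood apart. The retinoblastoma relative Rbl1 differed by -0.61 ± 0.11 and Tfdp2, a DNA-binding partner of E2F, by -0.75 ± 0.079 (adjusted p = 0.000987 and 4.29e-05). E2F-dependent replication genes, which belong to late G1 and S phase, were mostly lower at 120 minutes: 10 of 16 tested fell and 1 rose, with a median of -0.33 against -0.091 over all genes. The helicase subunit Mcm7 changed by -0.79 ± 0.062, Ccna2, the gene of cyclin A2, by -0.67 ± 0.070, the thymidine kinase gene Tk1 by -0.61 ± 0.087 and the helicase subunit Mcm5 by -0.55 ± 0.086. Of all tested genes 30.8% passed as lower in that contrast. Between genotypes 2 of the 11 pocket protein and E2F genes were higher in mutant cells and 1 was lower. Of the 16 replication genes 2 were higher and 1 lower. Of all tested genes 10.4% were higher and 8.92% lower.

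Of 16 genes that act in the degradation of G1 regulators 15 were tested, of which 4 rose and 6 fell between 0 and 120 minutes, against 16.2% of all tested genes higher and 30.8% lower. Between genotypes 2 of the 15 were higher and 1 lower in mutant cells, near the 10.4% higher and 8.92% lower of all tested genes. Fbxo31, whose product targets cyclin D1 for degradation, had 252.0, 194.7 and 108.1 in mutant cells and 376.3, 294.3 and 162.3 in wild-type cells. It fell by 1.12 ± 0.077 by 120 minutes (adjusted p = 2.66e-06) and was lower in mutant cells by -0.54 ± 0.063 (adjusted p = 0.000392). Cks1b, a cofactor in the degradation of p27, was higher in mutant cells by 0.49 ± 0.044 (adjusted p = 8.7e-05), with 2235, 2120 and 1897 in mutant and 1544, 1564 and 1337 in wild-type cells. Dtl, a substrate receptor in the degradation of p21, was higher in mutant cells by 0.62 ± 0.089 (adjusted p = 0.0015). Usp28, a deubiquitinase gene, rose by 0.64 ± 0.11 between 60 and 120 minutes (adjusted p = 0.0017).

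Of 20 p53 targets other than Cdkn1a 17 were tested. Between 0 and 60 minutes 6 rose and 4 fell, and between 60 and 120 minutes 1 rose and 10 fell, with a median of -0.72 in the second hour against -0.019 over all genes. Of all tested genes 7.34% passed as higher and 10.7% as lower in the first hour, and 10.2% and 15% in the second. Btg2, an antiproliferative gene, and Plk3, a polo-like kinase gene, rose in the first hour (3.22 and 2.84), and the second hour gave -2.44 and -1.45. Ddit4, an inhibitor of mTORC1 signalling, and Trp53inp1 fell at both steps, with -1.43 and -0.73 in the first hour and -1.31 and -1.88 in the second. Cdkn1a differed by 0.31 in the first hour and by 0.068 in the second. Between genotypes 2 of the 17 p53 targets were higher and 3 lower in mutant cells, against 10.4% and 8.92% of all tested genes. Of 10 FoxO targets other than Cdkn1b, all tested, 5 rose and 3 fell in the first hour and all 10 fell in the second, with a median of -0.72 in the second hour. Of all tested genes 7.34% passed as higher and 10.7% as lower in the first hour, and 15% as lower in the second. Trib1, a pseudokinase gene, and Bcl6, a repressor gene, rose in the first hour (3.32 ± 0.13 and 0.84 ± 0.070), and the second hour gave -1.48 and -2.71. Ccng2, the gene of cyclin G2, and Pik3ip1, an inhibitor of phosphoinositide 3-kinase, fell at both steps, with -1.47 and -2.22 in the first hour and -1.52 and -0.71 in the second. Cdkn1b differed by -0.54 and then -0.99. Between genotypes 2 of the 10 FoxO targets were higher and 2 lower in mutant cells. Of 14 other cyclin genes 12 were tested, and 2 rose and 6 fell between 0 and 120 minutes, against 16.2% of all tested genes higher and 30.8% lower. Among those that fell were Ccng2, Ccna2 and the mitotic cyclin gene Ccnb2 (-0.49 ± 0.084), whereas Ccnl1, the gene of cyclin L1, rose in the first hour (0.64 ± 0.071) and the second hour gave -0.57 ± 0.071. Of the 12, 3 were higher in mutant cells, against 10.4% of all tested genes: Ccng2 (0.31 ± 0.084), Ccnh and Ccna2 (0.28 ± 0.057). The lists overlap, so these calls are counted more than once. Ccng2 is also among the FoxO targets, Ccnh among the G1 CDKs and activators, and Ccna2 among the E2F-dependent replication genes.

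**Figure D4:**
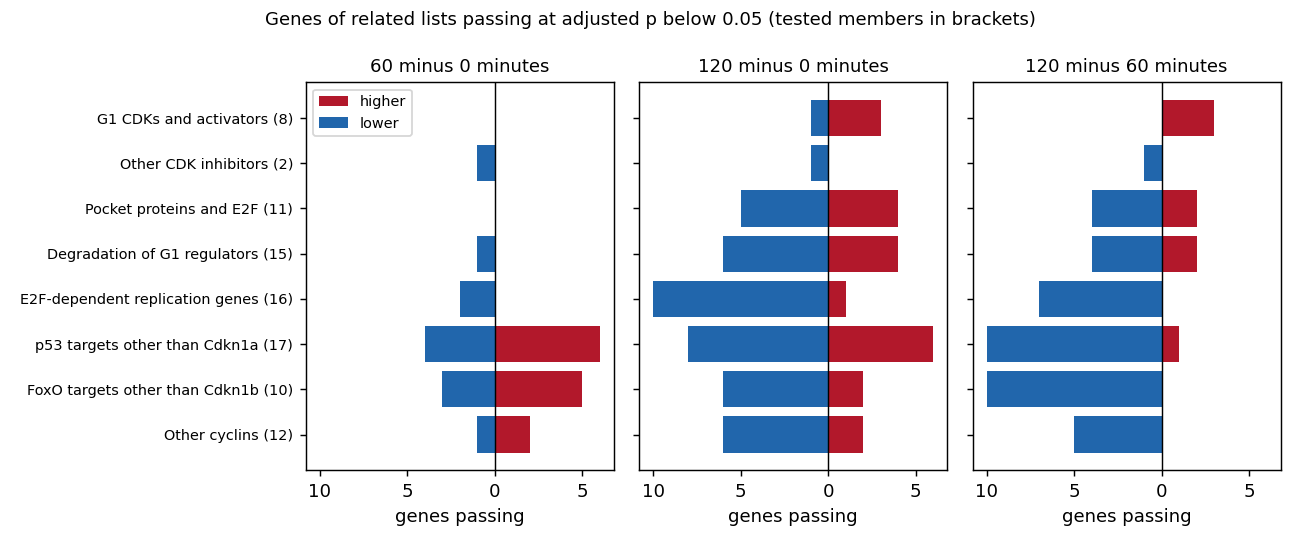
Number of genes that passed (horizontal axes, counts from 0 in both directions) as higher (red, right) or lower (blue, left) in 3 time contrasts, for 8 related gene lists with the number of tested genes in brackets. FoxO targets other than Cdkn1b show 10 lower genes of 10 between 120 and 60 minutes, and G1 CDKs and activators show 3 higher and 0 lower of 8. In that contrast 10.2% of all tested genes passed as higher and 15% as lower.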

How the data were processed

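Expression was measured on 6 arrays, 1 for each of 2 genotypes and 3 times. The authors deposited intensities per probe set, made with PLIER and Affymetrix Power Tools 1.14.3.1 per the submitters' processing notes; background correction and scaling between arrays are not given in the sources used here. No scaling was added here, and log2(intensity + 16) was analysed. Of 45101 probe sets 34945 were paired with 1 gene and covered 18194 genes, of which 10916 reached the filter, the 40th percentile of mean level. The members and gene lists were chosen with earlier results of these data known.

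The fit used limma 3.58.1 in R 4.3.3 with genotype and time as additive terms and a trend on mean level (2 residual and 7.77 prior degrees of freedom). Replicate numbers 1, 2 and 3 stand for 0, 60 and 120 minutes, so the labelled time pairs mutant with wild-type arrays. Deviations from the genotype mean correlated across genes at 0.911, 0.756 and 0.871 between same-time arrays of 0, 60 and 120 minutes. Values for single probe sets come from a fit of every probe set without a filter. The procedure was tested on simulated data. All members are named; of each related list the at most 4 passing genes with the largest absolute difference in any contrast were named, and Cdk4 besides, and for each passing member the 3 genes with the nearest profile. Alternatives were the offset, filter, probe-set choice, scaling, trend, block and leaving out each array. The number of arrays limits the precision.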

Additional observations from a re-analysis of the deposited data

Results flagged for a closer look

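The values below were flagged because the log2 change between times had opposite signs in mutant and wild-type cells, whatever its size. The share of all genes with opposite signs was not computed. With 1 array per genotype and time the difference between genotypes was not tested in any of them. Each value is the log2 change in mutant cells minus that in wild-type cells.

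For Ccne1 the value was -0.184 between 60 and 0 minutes (-0.0188 in mutant and 0.166 in wild-type cells), -0.255 between 120 and 0 minutes (-0.0234 and 0.231) and -0.0703 between 120 and 60 minutes (-0.00457 and 0.0657). For Ccne2 it was -0.352 between 120 and 0 minutes (-0.275 in mutant and 0.0773 in wild-type cells) and -0.238 between 120 and 60 minutes (-0.10 and 0.138). For Ccnd2 it was -0.0631 between 120 and 60 minutes (-0.0017 in mutant and 0.0614 in wild-type cells). For Cdkn1c, whose level lay near or below the filter level, it was 0.23 between 60 and 0 minutes (0.0326 in mutant and -0.198 in wild-type cells), 0.561 between 120 and 0 minutes (0.224 and -0.337) and 0.331 between 120 and 60 minutes (0.191 and -0.14). None of these genes passed a test of time over both genotypes. The mutant changes of Ccnd2 and Ccne1 were smaller in size than the SE of their time differences (0.049 and 0.091). For these the sign in mutant cells carries little weight.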

How the results depend on the processing

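The number of members passing between genotypes, 2, became 1 without a filter, with every probe set fitted, with median centring or with no trend in the shrinkage, and 0 without the replicate block. Without the block, the genotype contrast was fitted without time as a term, and the time contrasts without genotype. All genes passing between genotypes, 2112, became 1242 with every probe set fitted, 1397 with no trend and 89 without the block. Without the block, members passing between 60 and 0 minutes numbered 1 in place of 3, and all genes passing numbered 585 between 60 and 0, 2772 between 120 and 0 and 1007 between 120 and 60 minutes. Calls lost there were those of Cdkn1a and Cdkn2c between 60 and 0 minutes (adjusted p = 0.158 and 0.052, limma) and of Cdkn2c between 120 and 60 minutes (0.0747), beside those named for genotype. Each such fit counts the dropped term as error. Leaving out each array in turn gave 1 to 2 members and 1373 to 2163 genes between genotypes, and 1156 to 2516 genes between 60 and 0 minutes. Signs that turned were all of members that passed no test of that contrast, and the cause was not tested. With a gene's probe sets averaged, the genotype difference of Cdkn1b was -0.0687, the 120 minus 0 difference of Ccnd2 was 0.0478, and the 120 minus 60 differences were -0.0637 for Ccnd3 and -0.0191 for Ccne1. With median centring the 120 minus 0 difference of Ccnd2 was 0.00393 and the 120 minus 60 difference of Ccne2 was -0.00127. With arrays left out, the genotype difference ranged from -0.12 to 0.0564 for Ccne2 and from -0.0757 to 0.0688 for Cdkn1b. The 60 minus 0 difference ranged from -0.0364 to 0.183 for Ccne1 and from -0.28 to 0.115 for Cdkn1c. The 120 minus 0 difference ranged from -0.00579 to 0.214 for Ccne1, from -0.246 to 0.0488 for Ccne2 and from -0.28 to 0.166 for Cdkn1c. The 120 minus 60 difference ranged from -0.0507 to 0.112 for Ccne1, from -0.129 to 0.166 for Ccne2 and from -0.197 to 0.249 for Cdkn1c.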
